A study of Homo sapiens with 18 samples.

Results

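The genes described here encode the transcription coactivators YAP (YAP1) and TAZ (WWTR1), the DNA-binding partners TEAD1 and TEAD4, and genes known as targets of these complexes (CCN1, CCN2, ANKRD1, AMOTL2, LATS2 and AJUBA). They were chosen by name, and the Ensembl identifiers of both count tables were mapped to symbols through GENCODE 44, which found all 10 of the 10 genes among the 58825 genes listed. All 10 passed the filter on low counts at both time points. RNA came from OVCAR-3 cells, an established line of high-grade serous ovarian cancer, treated in stripped medium with DMSO as the vehicle, with 1 µM i-BET858 or with 1 µM i-BET151. Both compounds are inhibitors of BET proteins, the bromodomain readers of acetylated histones, and the study describes i-BET858 as bivalent and active on the whole BET family. RNA was collected after 4 h and after 24 h, with 3 replicates in each of the 6 groups and 18 libraries in all. The cells carried no engineered change according to the labels, and all results rest on 1 cell line.

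In the Hippo pathway, the kinases MST1/2 (STK4 and STK3) with SAV1 activate LATS1 and LATS2, which phosphorylate YAP and TAZ and keep them out of the nucleus. When they are not phosphorylated, YAP and TAZ enter the nucleus, bind TEAD proteins and switch on genes for matrix-associated signals, the cytoskeleton and growth. Several targets feed back on the pathway, since LATS2 is itself a Hippo kinase, AMOTL2 binds YAP in the cytoplasm and AJUBA restrains LATS kinases. In epithelial cancers, including those of the ovary, YAP and TAZ are known for their part in growth and in the response to cell density and stiffness. RNA counts do not measure the phosphorylation or location of either protein.

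The libraries held 27323969 to 46299994 counts (median 32267434). Libraries of replicate 3 held fewer genes with a count (17817 to 20642) than those of replicate 1 (23674 to 24947) or replicate 2 (23807 to 24938), in every group, so calls of the 10 members that differ in replicates 1 and 2 alone are named beside the results. All 10 markers of the line, such as PAX8 and EPCAM, had counts in every library, but their summed level moved with treatment. CPM are read counts scaled to the library total, where TMM scaling first adjusts the total of each library. At 4 h the summed level was 8579 to 10347 CPM with DMSO, 9923 to 10452 CPM with i-BET151 and 11602 to 12324 CPM with i-BET858. At 24 h it was 8649 to 10362, 6919 to 7727 and 7018 to 7685 CPM, in the same order. The keratin KRT8 took most of this sum, with means of 5599 CPM with DMSO and 4151 CPM with i-BET858 at 24 h. KRT18 (means of 1536 and 622 CPM) and KRT7 (708 and 419 CPM) were lower there too. In contrast, CDH1 (222 and 486 CPM) and SOX17 (196 and 339 CPM) were higher and PAX8 (486 and 496 CPM) overlapped. MUC16 spread widely within DMSO itself, from 105 to 298 CPM at 4 h and from 53.1 to 303 CPM at 24 h. Of the markers of other cell types, COL1A1 stood at 21.1 to 46.1 CPM, while DCN and LUM stayed under 0.250 CPM. The summed level of 4 endothelial markers was 3.46 to 6.72 CPM with DMSO, 4.59 to 12.3 CPM with i-BET151 and 9.26 to 15.7 CPM with i-BET858 at 4 h, where KDR took most of the difference, and PECAM1 and CDH5 stayed under 0.862 CPM. The endothelial sum moved with the treatment at 4 h as CCN1 and CCN2 did, the sum of the markers of the line moved at both times, and the part of either in the results was not tested. In bulk RNA, fewer cells with a transcript and less of it per cell cannot be told apart. Although the study calls its replicates biological, the labels do not say how they were separated, and p-values measure the spread between these samples.

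TEAD proteins bind the core motif GGAATG, and AP-1 factors, which often share sites with them, bind TGANTCA. RefSeq promoter windows on GRCh38.p14, each of 300 bases from 250 upstream of a start site to 50 within the transcript, were found for 7 of the 10 members (10 windows). TEAD1, TEAD4 and CCN1 had no entry. On either strand, GGAATG was found in 14.03% and TGANTCA in 7.709% of all 35116 windows. Among the windows of the members, GGAATG was found in 6 of 10 and TGANTCA in 1 of 10. The motifs share no overlapping match there. CCN2 and ANKRD1 are shown because they held the most matches and, as described below for the counts, moved in opposite directions at 4 h. The lines give the 250 bases upstream of each start site from 5′ to 3′ on the strand of the gene, which is the minus strand for both, with matches in capitals.
CCN2, chr6:131951373-131951622: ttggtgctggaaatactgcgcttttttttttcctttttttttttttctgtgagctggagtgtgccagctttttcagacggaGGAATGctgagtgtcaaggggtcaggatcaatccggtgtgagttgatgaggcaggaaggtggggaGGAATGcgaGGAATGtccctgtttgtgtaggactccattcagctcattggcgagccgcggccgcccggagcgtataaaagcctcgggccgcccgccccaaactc
ANKRD1, chr10:90921088-90921337: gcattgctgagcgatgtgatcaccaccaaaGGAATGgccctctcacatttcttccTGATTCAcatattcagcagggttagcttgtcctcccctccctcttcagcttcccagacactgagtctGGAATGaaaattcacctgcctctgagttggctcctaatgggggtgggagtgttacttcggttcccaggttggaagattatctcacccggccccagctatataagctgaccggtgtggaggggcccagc
In the CCN2 window, GGAATG began 169, 104 and 95 bases upstream of the start site. In the ANKRD1 window it began 220 and 128 bases upstream, and TGATTCA began 195 bases upstream. YAP1 had 1 match (162 bases upstream), as did 1 of the 2 windows of AMOTL2 (69 bases upstream, on the other strand) and 1 of the 2 windows of AJUBA (59 bases upstream). The LATS2 match lay within the transcript, from its base 10, and the 2 windows of WWTR1 had none. A match describes letters and is not evidence of binding.

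Compared per length of exons (RPKM, which is CPM divided by the exon length in kilobases), AMOTL2 was the most abundant of the 10 transcripts in the DMSO libraries at 4 h, with 134 ± 20.3 RPKM (SD, n = 3). CCN2 followed with 67.3 ± 12.4 and CCN1 with 49.1 ± 6.13 RPKM, and the replicates of these 3 genes did not overlap. AJUBA (23.5 ± 3.81), TEAD1 (21.4 ± 3.32), WWTR1 (18.4 ± 0.638), TEAD4 (17.2 ± 3.51), YAP1 (15.3 ± 0.923) and ANKRD1 (13.1 ± 2.65 RPKM) came next, and each overlapped its neighbour in this order. LATS2 was lowest, at 3.14 ± 0.271 RPKM, below all other members in every DMSO library at 4 h.

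**Figure D1:**
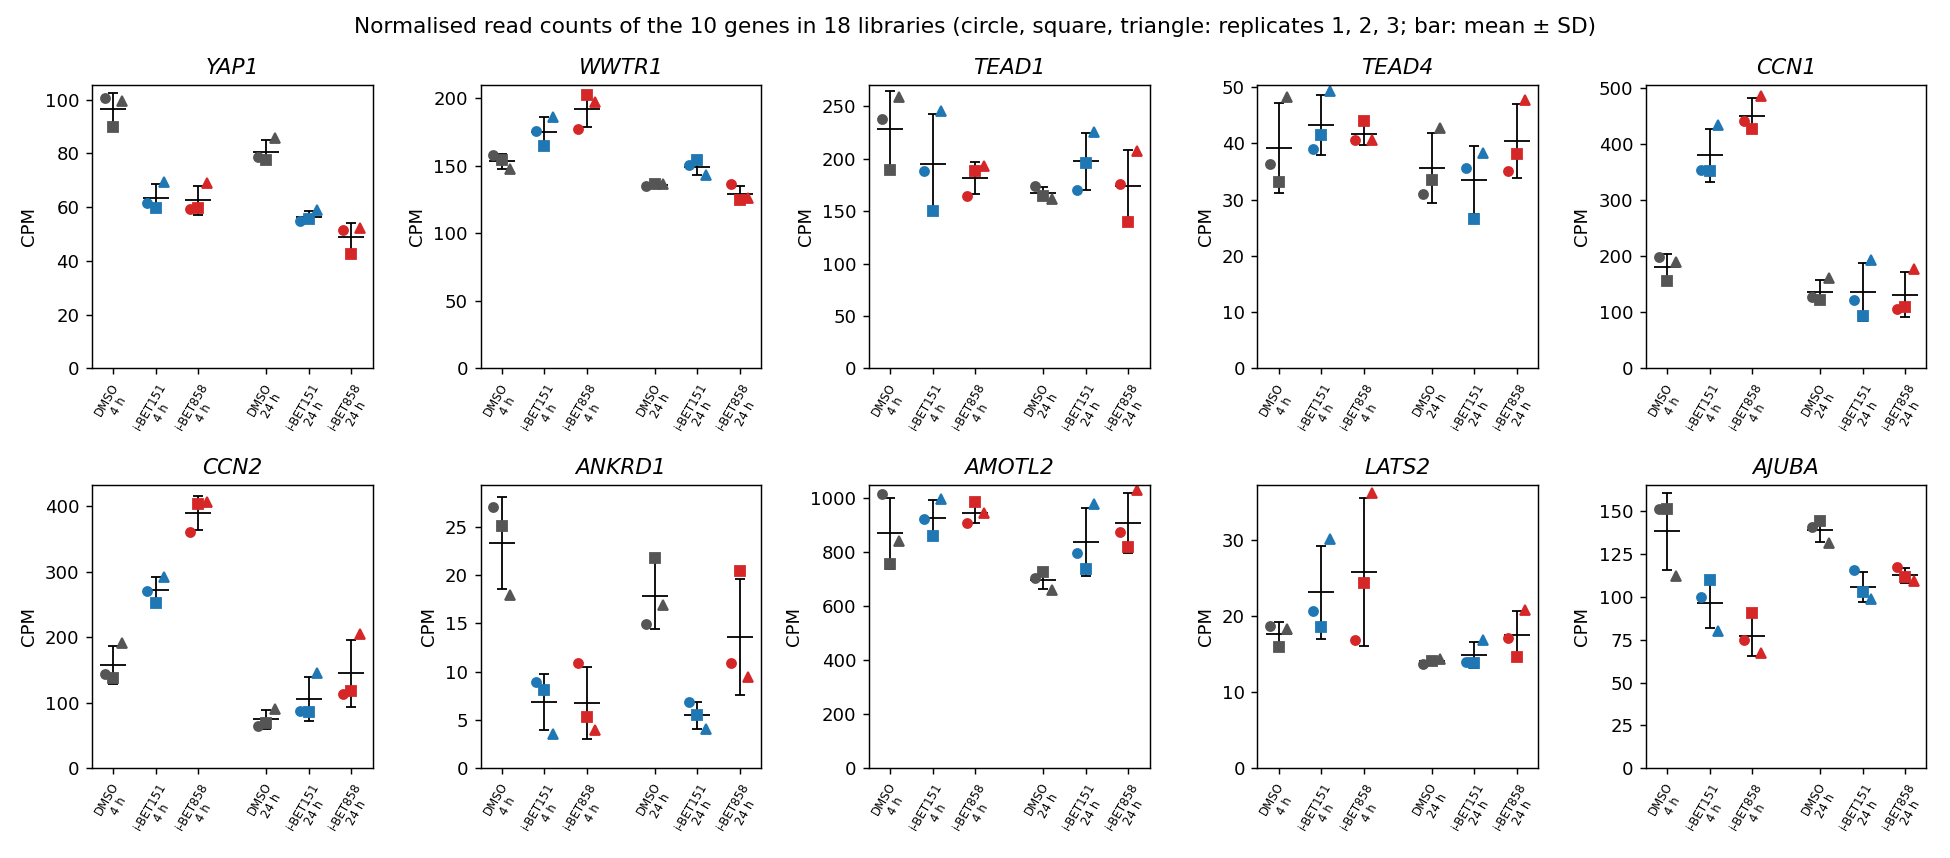
Normalised read counts (CPM, linear axis from 0) of the 10 genes in each of the 18 libraries, with replicates 1, 2 and 3 as circles, squares and triangles and the mean ± SD of each group as a bar. CCN1 and CCN2 stood above DMSO with both inhibitors at 4 h, YAP1 stood below DMSO in every comparison, and ANKRD1 with i-BET858 at 24 h spread from 9.44 to 20.5 CPM.

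Against DMSO at 4 h, i-BET858 changed 6 of the 10 genes (edgeR quasi-likelihood test, Benjamini-Hochberg adjusted p under 0.05). The fit left the replicate number out, and calls of members that differ with it as a block are given beside each gene. WWTR1, CCN1 and CCN2 rose, where 14.5% of all 17192 genes tested rose, and YAP1, ANKRD1 and AJUBA fell, where 16.3% fell. With a change of at least 2-fold as well there were 3 members (CCN1, CCN2 and ANKRD1), against 14.1% of all genes in either direction. With i-BET151 at 4 h, CCN1 and CCN2 rose (7.81% of all genes) and YAP1 and ANKRD1 fell (8.43%), and 2 of the members, CCN1 and ANKRD1, passed the 2-fold limit (7.10%). At 24 h, i-BET858 raised CCN2 (20.5% of all 17157 genes rose) and lowered YAP1 and AJUBA (21.3% fell), and no member reached 2-fold (18.8%). With i-BET151 at 24 h no member rose (17.2% of all genes did), while YAP1, ANKRD1 and AJUBA fell (16.6%), of which ANKRD1 passed 2-fold (13.7%). The median log2 fold change of the members was 0.12 with both inhibitors at 4 h, −0.05 with i-BET858 and 0.02 with i-BET151 at 24 h, beside 0.02, 0.01, −0.01 and 0.00 over all genes. The inhibitors share their DMSO libraries at each time point, so their effects are given side by side.

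**Figure D2:**
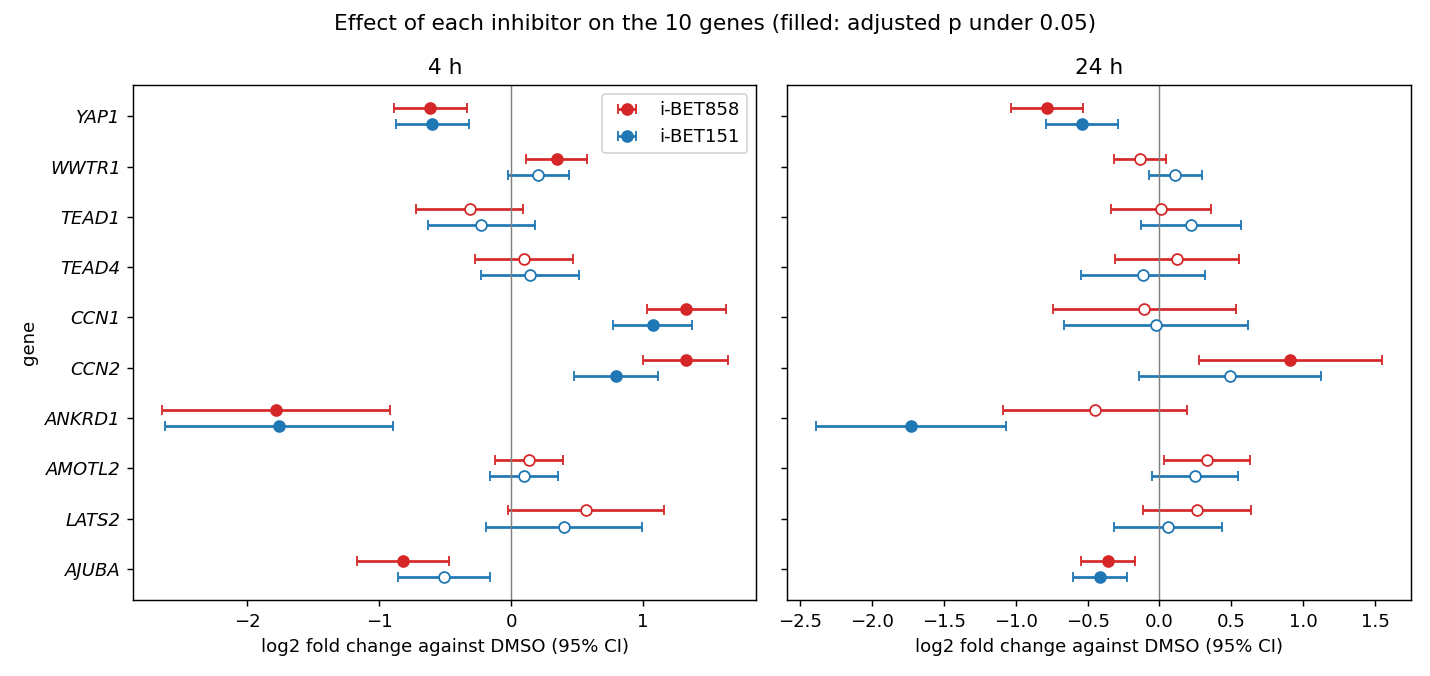
Log2 fold change of the 10 genes against DMSO with its 95% confidence interval, for i-BET858 (red) and i-BET151 (blue), at 4 h (left) and 24 h (right), where filled points have an adjusted p under 0.05. At 4 h CCN1 and CCN2 lie to the right and ANKRD1 to the left of 0 with both inhibitors, and at 24 h CCN1 lies near 0.

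YAP1 (ENSG00000137693.14, chr11:102110447-102233424, plus strand, GRCh38) encodes the coactivator YAP. In the DMSO libraries at 4 h it had 100.5, 89.9 and 99.5 CPM (replicates 1, 2 and 3). It had 59.2, 59.6 and 68.8 CPM with i-BET858 and 61.4, 59.6 and 69.2 CPM with i-BET151. Every treated library was below every DMSO library, and the treated groups overlapped each other. This was a log2 fold change of −0.61 for i-BET858 (SE 0.126, adjusted p = 0.00333) and of −0.60 for i-BET151 (SE 0.126, adjusted p = 0.00784). At 24 h YAP1 stood at 78.6, 77.5 and 85.8 CPM with DMSO, 51.3, 42.7 and 52.3 CPM with i-BET858 and 54.7, 55.6 and 58.9 CPM with i-BET151. All treated libraries were again the lower ones, and all 3 libraries of i-BET858 were below all 3 of i-BET151. The log2 fold changes at 24 h were −0.78 (SE 0.114, adjusted p = 2.97e-04) and −0.54 (SE 0.114, adjusted p = 0.00416), respectively. YAP1 was thus the member that fell in all 4 comparisons with DMSO, and these calls were kept under every alternative fit, although none of them reaches 2-fold. Its exons overlap antisense lncRNA exons, and since the strand setting of the counting was not given in the sources used here, reads of these cannot be told apart.

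WWTR1 (ENSG00000018408.14, chr3:149517235-149736714, minus strand) encodes TAZ, the paralogue of YAP, and was not called lower in any comparison with DMSO. At 4 h it had 158, 154 and 147.5 CPM with DMSO, 177, 203 and 197 CPM with i-BET858 and 176, 164.5 and 186 CPM with i-BET151. Both treated groups were above the DMSO libraries without overlap, by a small margin. It rose with i-BET858 by a log2 fold change of 0.34 (SE 0.105, adjusted p = 0.0278), while with i-BET151 the value was 0.20 (SE 0.105, adjusted p = 0.227). The rise with i-BET858 lost its call when libraries were scaled by total counts (0.18, adjusted p = 0.178), without the filter on low counts (adjusted p = 0.114) and when any of 5 libraries was left out: DMSO replicate 1 (adjusted p = 0.0605), 2 (0.0900) or 3 (0.0735) and i-BET858 replicate 2 (0.0833) or 3 (0.0671). At 24 h WWTR1 stood at 136, 136 and 136 CPM with DMSO and at 136, 124.5 and 126 CPM with i-BET858, a log2 fold change of −0.13 (SE 0.0823, adjusted p = 0.226). With i-BET151 at 24 h it had 151, 154 and 143 CPM, all above DMSO, with a log2 fold change of 0.11 (SE 0.0823, adjusted p = 0.338). Exons of WWTR1-AS1 overlap WWTR1 on the other strand, with the same limit as for YAP1.

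TEAD1 and TEAD4 bring YAP and TAZ to DNA, and neither passed the test in any comparison. TEAD1 (ENSG00000187079.17, chr11:12674421-12944737, plus strand) ranged from 189 to 259 CPM with DMSO at 4 h, from 165 to 193 CPM with i-BET858 and from 150.2 to 245 CPM with i-BET151. The groups overlapped, and the log2 fold changes were −0.32 (95% CI −0.72 to 0.09) and −0.23 (−0.63 to 0.18). With the replicate number as a block, TEAD1 was called lower with i-BET858 at 4 h (log2 fold change −0.30, adjusted p = 0.0406), as it was with scaling by total counts (−0.47, adjusted p = 0.0471). At 24 h its log2 fold changes were 0.01 (95% CI −0.34 to 0.36) with i-BET858 and 0.22 (−0.13 to 0.57) with i-BET151. TEAD4 (ENSG00000197905.9, chr12:2959330-3040676, plus strand) lay between 26.7 and 49.3 CPM across the 18 libraries, and its groups overlapped in every comparison. Its log2 fold changes against DMSO ran from −0.12 to 0.15, and no alternative gave a call. The widest of their 95% intervals, for i-BET151 at 24 h, ran from −0.55 to 0.31.

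TEAD2 and TEAD3, which are not members but bind the same motif, were both called lower. TEAD2 had 55.0, 59.3 and 65.2 CPM with DMSO at 24 h, 28.8, 30.2 and 28.9 CPM with i-BET858 and 30.8, 29.9 and 32.0 CPM with i-BET151. It fell by 1.09 (log2) with i-BET858 (SE 0.111, adjusted p = 2.78e-05) and by 0.98 with i-BET151 (SE 0.111, adjusted p = 9.35e-05), and its values at 4 h were −0.19 and −0.18, not called except for i-BET858 with scaling by total counts (−0.35, adjusted p = 0.0458). TEAD3 fell with i-BET858 at 4 h (log2 fold change −0.63, adjusted p = 0.00831) and 24 h (−0.59, adjusted p = 0.00377) and with i-BET151 at 24 h (−0.39, adjusted p = 0.0360). The last call was lost without any of 5 libraries (all but DMSO replicate 3, adjusted p up to 0.146) and in the fit of all 18 libraries (0.0535). At 4 h TEAD3 with i-BET151 had a log2 fold change of −0.33, called with the replicate block (adjusted p = 0.0269). Per length, the TEAD genes stood close together with DMSO at 24 h, at 15.6 ± 0.608 (TEAD1), 20.1 ± 1.71 (TEAD2), 15.5 ± 2.56 (TEAD3) and 15.7 ± 2.73 RPKM (TEAD4). With i-BET858 at 24 h they were 16.3 ± 3.13, 9.84 ± 0.260, 10.7 ± 1.35 and 17.8 ± 2.89 RPKM. TEAD1 and TEAD4 were then the 2 higher transcripts, and TEAD2 and TEAD3 the 2 lower.

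**Figure D3:**
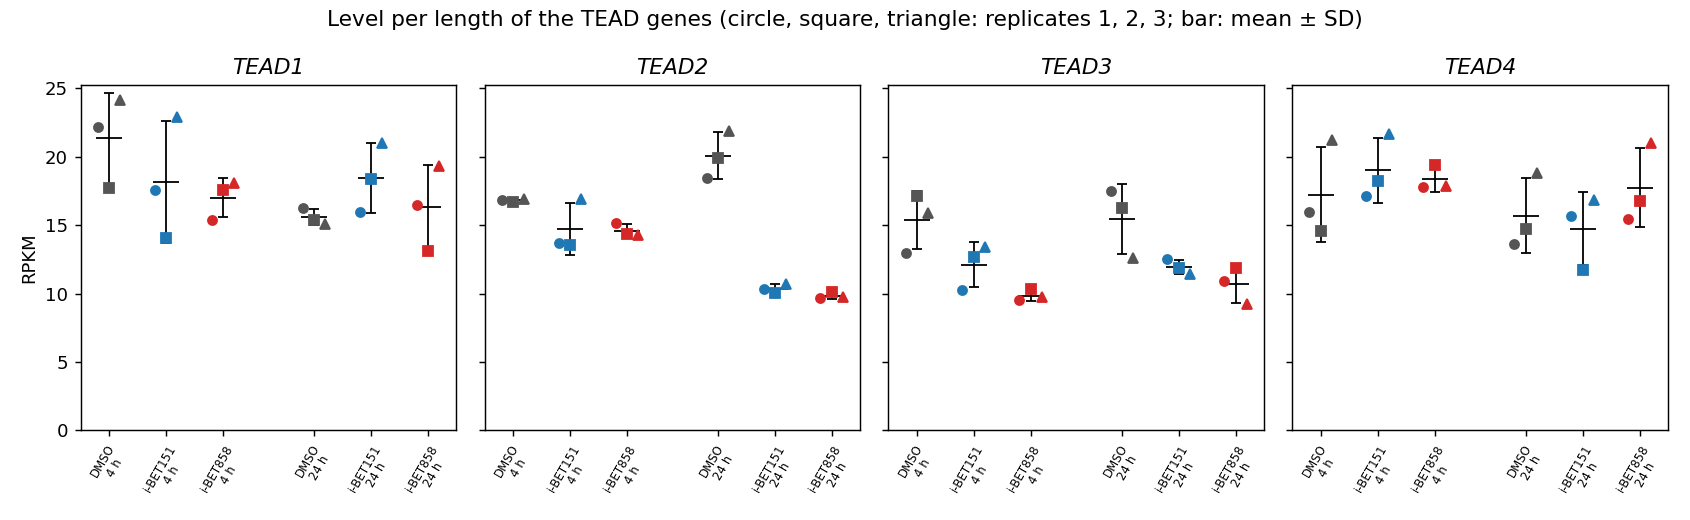
Level per exon length (RPKM, linear axis from 0) of TEAD1 to TEAD4 in the 18 libraries, with replicates as circles, squares and triangles and the mean ± SD of each group (n = 3) as a bar. TEAD2 with either inhibitor at 24 h lies below every DMSO library, while TEAD1 and TEAD4 overlap with DMSO.

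CCN1 (ENSG00000142871.17, chr1:85580761-85584589, plus strand), formerly CYR61, encodes a matrix-associated signalling protein and is among the most used readouts of YAP and TAZ. At 4 h it had 199, 156 and 190.4 CPM with DMSO, 441, 427 and 486 CPM with i-BET858 and 354, 352.5 and 434 CPM with i-BET151. The treated libraries were all far above DMSO, and the treated groups overlapped. CCN1 rose by 1.33 on the log2 scale under i-BET858 (SE 0.137, adjusted p = 3.47e-05) and by 1.07 under i-BET151 (SE 0.136, adjusted p = 3.81e-04). At 24 h CCN1 stood at 127, 121 and 161 CPM with DMSO, 106.5, 110.0 and 178 CPM with i-BET858 and 122, 92.9 and 193 CPM with i-BET151. The 3 groups overlapped, with replicate 3 the highest in each. The log2 fold changes were −0.10 (95% CI −0.74 to 0.53) and −0.02 (−0.66 to 0.61). Between 4 and 24 h the effect of i-BET858 on CCN1 fell by 1.39 on the log2 scale (drug-by-time interaction over all 18 libraries, SE 0.335, adjusted p = 0.00475). That of i-BET151 fell by 1.08 (SE 0.334, adjusted p = 0.0388), but this call was lost when any of 9 of the 12 libraries was left out (all except DMSO replicates 1 and 2 and i-BET151 replicate 3 at 24 h), with changes of −1.14 to −0.86 and adjusted p up to 0.101.

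CCN2 (ENSG00000118523.6, chr6:131948176-131951372, minus strand), formerly CTGF, encodes a related matrix-associated protein. At 4 h it had 143, 138 and 191 CPM with DMSO, 360.5, 403 and 406 CPM with i-BET858 and 271, 253 and 292 CPM with i-BET151. The 3 groups did not overlap, in the order DMSO, i-BET151, i-BET858. The rise was 1.32 on the log2 scale for i-BET858 (SE 0.147, adjusted p = 5.94e-05) and 0.79 for i-BET151 (SE 0.145, adjusted p = 0.00366). At 24 h CCN2 stood at 64.3, 68.7 and 90.3 CPM with DMSO, 113, 117.5 and 204.5 CPM with i-BET858 and 86.7, 86.5 and 145 CPM with i-BET151. All libraries of i-BET858 were above all DMSO libraries, whereas those of i-BET151 overlapped with both. With i-BET858 the log2 fold change at 24 h was 0.91 (SE 0.289, adjusted p = 0.0263), which lost its call without DMSO replicate 1 (0.80, adjusted p = 0.0856) or 2 (0.84, 0.0812) or i-BET858 replicate 3 (0.57, 0.102). With i-BET151 it was 0.49 (SE 0.288, adjusted p = 0.223), and was called with the replicate block (0.46, adjusted p = 0.00141), with replicates 1 and 2 only (0.34, 0.00246) and without the filter on low counts (0.00178). The effect on CCN2 changed by −0.36 (95% CI −1.07 to 0.34) between 4 and 24 h for i-BET858 and by −0.28 (−0.99 to 0.42) for i-BET151. Neither change was called, although both were with replicates 1 and 2 only (−0.71, adjusted p = 5.24e-04, and −0.57, adjusted p = 0.00489). LINC01013 overlaps CCN2 on the other strand.

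ANKRD1 (ENSG00000148677.6, chr10:90912096-90921087, minus strand) encodes an ankyrin repeat protein of muscle and other cells and is widely used as a YAP target. Unlike CCN1 and CCN2, it fell at 4 h. It had 27.02, 25.07 and 17.99 CPM with DMSO, 10.9, 5.33 and 3.92 CPM with i-BET858 and 8.94, 8.13 and 3.58 CPM with i-BET151. Every treated library was below every DMSO library, and replicate 3 was lowest in each group. ANKRD1 thus had a log2 fold change of −1.79 under i-BET858 (SE 0.394, adjusted p = 0.00505) and of −1.76 under i-BET151 (SE 0.394, adjusted p = 0.0110). At 24 h ANKRD1 stood at 14.96, 21.74 and 16.90 CPM with DMSO and at 6.88, 5.51 and 4.08 CPM with i-BET151, which did not overlap. With i-BET858 it had 10.9, 20.5 and 9.44 CPM, so that replicate 2 lay within the DMSO range. The log2 fold change at 24 h was −1.73 with i-BET151 (SE 0.300, adjusted p = 0.00133) and −0.45 with i-BET858 (SE 0.289, adjusted p = 0.246). Without replicate 2 of i-BET858 the latter became −0.88 and was called (adjusted p = 0.0174). The change of the i-BET858 effect from 4 to 24 h was 1.38 (95% CI 0.28 to 2.47, adjusted p = 0.0577), and was called with the replicate block (1.37, adjusted p = 0.00557), with DESeq2 (0.0355), with replicates 1 and 2 only (0.0165), without the filter on low counts (2.29e-04) and without replicate 1 of i-BET858 at 4 h (1.90, 0.0105) or its replicate 3 at 24 h (1.57, 0.0409). For i-BET151 that change was 0.05 (−1.05 to 1.15).

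AMOTL2 (ENSG00000114019.14, chr3:134355347-134375479, minus strand), an angiomotin family protein that binds YAP, was high in every library, at 659 to 1029 CPM. At 4 h its log2 fold changes were 0.13 with i-BET858 (95% CI −0.12 to 0.39) and 0.10 with i-BET151 (−0.16 to 0.36), and the groups overlapped. At 24 h it had 702, 724 and 659 CPM with DMSO, 874, 817 and 1029 CPM with i-BET858 and 795, 735 and 975 CPM with i-BET151. All treated libraries were above all DMSO libraries, but neither value was called (0.33, SE 0.136, adjusted p = 0.0731, and 0.25, SE 0.136, adjusted p = 0.192). For i-BET858 it was called with the replicate block (0.32, adjusted p = 0.0114), with only the groups compared (0.0460), with all 18 libraries (0.0293), without the filter on low counts (0.0205) and with replicates 1 and 2 only (0.19, 0.0156). A pseudogene, RPL39P5, overlaps its exons on the same strand.

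LATS2 (ENSG00000150457.9, chr13:20973036-21061586, minus strand), the Hippo kinase among the targets, had 18.7, 15.9 and 18.3 CPM with DMSO at 4 h, 16.9, 24.4 and 36.1 CPM with i-BET858 and 20.7, 18.6 and 30.1 CPM with i-BET151. Replicate 3 was the highest in both treated groups, and i-BET858 replicate 1 lay within the DMSO range. The log2 fold change with i-BET858 was 0.57 (SE 0.270, adjusted p = 0.140). It was called with the replicate block (0.51, adjusted p = 0.0249), without the filter on low counts (0.0327) and without i-BET858 replicate 1 (0.80, 0.0375). With i-BET151 the value was 0.40 (95% CI −0.19 to 0.99). At 24 h LATS2 ranged from 13.7 to 20.8 CPM over all groups, with log2 fold changes of 0.26 (95% CI −0.11 to 0.63) and 0.06 (−0.31 to 0.43). Its paralogue LATS1 fell with i-BET858 at 4 h, from 42.6, 38.1 and 39.7 CPM with DMSO to 15.7, 21.2 and 17.6 CPM (log2 fold change −1.13, SE 0.166, adjusted p = 3.94e-04). With i-BET151 at 4 h LATS1 had a log2 fold change of −0.45 (adjusted p = 0.0928), called with the replicate block (adjusted p = 0.0210), with scaling by total counts (0.0434), with all 18 libraries (0.0376), with replicates 1 and 2 only (0.0231) and without i-BET151 replicate 3 (−0.60, 0.0309), and at 24 h its values were −0.0002 and 0.08, not called.

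AJUBA (ENSG00000129474.16, chr14:22971177-22982551, minus strand), a LIM domain scaffold, had 151, 151 and 112.5 CPM with DMSO at 4 h, 74.7, 90.7 and 67.1 CPM with i-BET858 and 100.1, 109.7 and 80.2 CPM with i-BET151. All treated libraries were below all DMSO libraries. It fell with i-BET858 (log2 fold change −0.82, SE 0.160, adjusted p = 0.00241). With i-BET151 the value was −0.51 (SE 0.159, adjusted p = 0.0503), just outside the threshold, and −0.51 with the replicate block, which was called (adjusted p = 4.63e-04), as it was with DESeq2 (0.0307), with scaling by total counts (0.0469), without the filter (0.00896), with at least 10 counts in every library (0.0485), with all 18 libraries (0.00922), with replicates 1 and 2 only (0.0115) and without DMSO replicate 3 (0.0389). At 24 h it stood at 141, 144.5 and 131 CPM with DMSO, 118, 111.5 and 109 CPM with i-BET858 and 116, 103 and 98.9 CPM with i-BET151, again without overlap. The log2 fold changes were −0.36 (SE 0.0855, adjusted p = 0.00647), lost in the fit of all 18 libraries (−0.32, adjusted p = 0.0599), and −0.42 (SE 0.0856, adjusted p = 0.00355). The change of the i-BET858 effect from 4 to 24 h was 0.51 (adjusted p = 0.0475), under 2-fold, a call lost in 6 of the 7 alternative fits that kept all libraries (all but the replicate block) and without 10 of the 12 libraries of the contrast (all but DMSO replicate 3 and i-BET858 replicate 2 at 4 h), with adjusted p of 0.0572 to 0.151. Its exons share 50 bases with another protein-coding gene on the same strand.

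Set side by side, the targets were not all called in the same direction. At 4 h CCN1 and CCN2 rose more than 1.5-fold with both inhibitors, ANKRD1 and AJUBA were lower in 9 of 9 treated-to-DMSO pairs with both, and AMOTL2 and LATS2 were not called. Over the 18 libraries the log2 CPM of CCN1 and CCN2 had a Pearson correlation of 0.92, the highest among all pairs of members and a description over libraries that share groups and replicate numbers. LATS2 had 0.80 with CCN1 and 0.82 with CCN2, AMOTL2 had 0.61 and 0.74, and ANKRD1 and AJUBA had 0.78 with each other. ANKRD1 had −0.47 with each of CCN1 and CCN2, and AJUBA had −0.70 with CCN1 and −0.76 with CCN2, the lowest of all pairs. Among 12445 genes, those most like CCN1 were PDLIM2 (0.97), SDC4 (0.97) and FHL3 (0.96), and those most like CCN2 were SDC4 (0.96), LIMS1 (0.96) and PRAG1 (0.95). YAP1 was most like TNS3 (0.98), MANEA (0.97) and MTMR1 (0.96), and WWTR1 most like EXOC4 (0.94), SFPQ (0.93) and TMEM63C (0.93). For TEAD4, which passed no test, the highest values were lower, with RPS27, MT-RNR1 and SGSH at 0.83 each.

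Of the drug-by-time changes, the effect of i-BET858 rose for 1 of the 10 members (AJUBA), where 14.6% of all 18154 genes rose, and fell for 2 (WWTR1 and CCN1), where 12.6% fell. For WWTR1 the change was −0.43 (SE 0.123, adjusted p = 0.0132), which is under 2-fold, and the call was lost without the filter on low counts (−0.40, adjusted p = 0.202). The effect of i-BET151 rose for none of the members (6.99% of all genes) and fell for CCN1 alone (6.82%). With a 2-fold limit CCN1 was the member left for each inhibitor, beside 15.1% of all genes for i-BET858 and 6.70% for i-BET151. In the DMSO groups themselves, no member was called between 4 and 24 h by edgeR, where 0.00% of all genes rose and 0.0386% fell. At an unadjusted p under 0.05 there were 4 members (YAP1, TEAD1, CCN2 and AMOTL2), where 9.17% of all genes were under it in either direction, all lower at 24 h in each of the 9 pairs. CCN2 had the lowest p, with a log2 fold change of −1.07 (SE 0.241, adjusted p = 0.116), and was the member called by DESeq2 (adjusted p = 0.00871), with the replicate block (1.47e-04), with replicates 1 and 2 only (1.21e-04) and without the filter (2.62e-10). The level that CCN2 is compared with at 24 h was therefore lower in these libraries than that at 4 h.

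**Figure D4:**
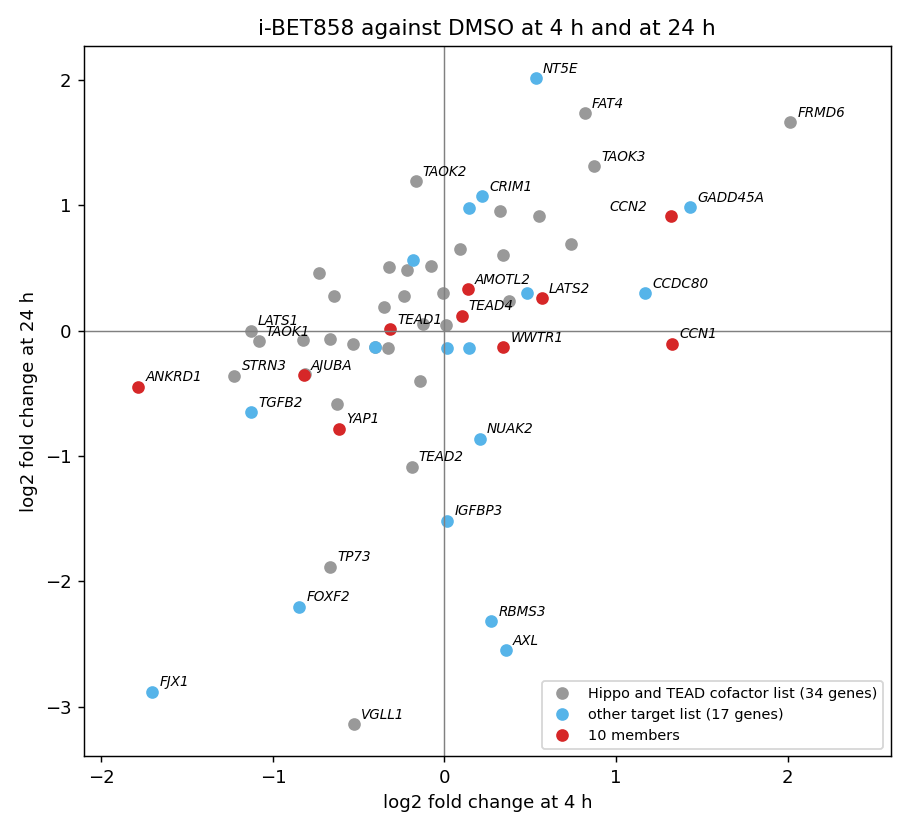
Log2 fold change with i-BET858 against DMSO at 4 h (horizontal) and 24 h (vertical) for the 10 members (red), 34 genes of the Hippo pathway and TEAD cofactors (grey) and 17 other targets (light blue), with members, genes named by rule and genes beyond 1 on either axis labelled. CCN1 lies at 1.33 and −0.10, CCN2 at 1.32 and 0.91, and FRMD6 lies furthest to the right at 2.02.

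The inhibitors were compared with each other at the same dose in 2 pairs of groups, 1 at each time point, with p-values adjusted over all genes. No member was called at 4 h, where 0.413% of all genes were higher and 0.558% lower with i-BET858, or at 24 h (0.0933% higher and 0.117% lower). Of these calls over all genes 42.5% were higher at 4 h and 44.4% at 24 h, or 16.6% and 26.8% with scaling by total counts and 76.9% at 24 h with DESeq2's size factors. At an unadjusted p under 0.05 there was 1 member at 4 h (CCN2) and 2 at 24 h (WWTR1 and ANKRD1), where 11.9% and 11.4% of all genes were under it, while DESeq2 called 1 member at each time point (CCN2 and ANKRD1). At 4 h CCN2 was higher with i-BET858 by 0.53 on the log2 scale (95% CI 0.21 to 0.84, adjusted p = 0.125) and in all 9 pairs of libraries. The replicate block (0.53, adjusted p = 0.00243), DESeq2 (0.0343), replicates 1 and 2 only (0.0263) and no filter on low counts (0.0221) gave a call. The difference for CCN1 at 4 h was 0.25 (95% CI −0.04 to 0.55) and that for AJUBA −0.31 (−0.66 to 0.04), the latter called with the replicate block (−0.31, adjusted p = 0.0410). At 24 h ANKRD1 was higher with i-BET858 by 1.28 (95% CI 0.62 to 1.94, adjusted p = 0.124) and in all 9 pairs. It was called with the replicate block (1.21, adjusted p = 0.0114), DESeq2 (0.00173), replicates 1 and 2 only (0.0157) and no filter (9.95e-07). CCN2 at 24 h differed by 0.42 (−0.21 to 1.06), called with the replicate block (0.41, adjusted p = 0.0262) and with replicates 1 and 2 only (0.0089). YAP1 and WWTR1 at 24 h were lower with i-BET858 in all 9 pairs, with log2 fold changes of −0.24 each (95% CI −0.50 to 0.01 and −0.43 to −0.06). For the remaining members at either time the differences lay between −0.21 and 0.24, and the interval was widest for ANKRD1 at 4 h (−0.88 to 0.83). A p that misses the threshold does not show that the inhibitors act alike on these genes.

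**Figure D5:**
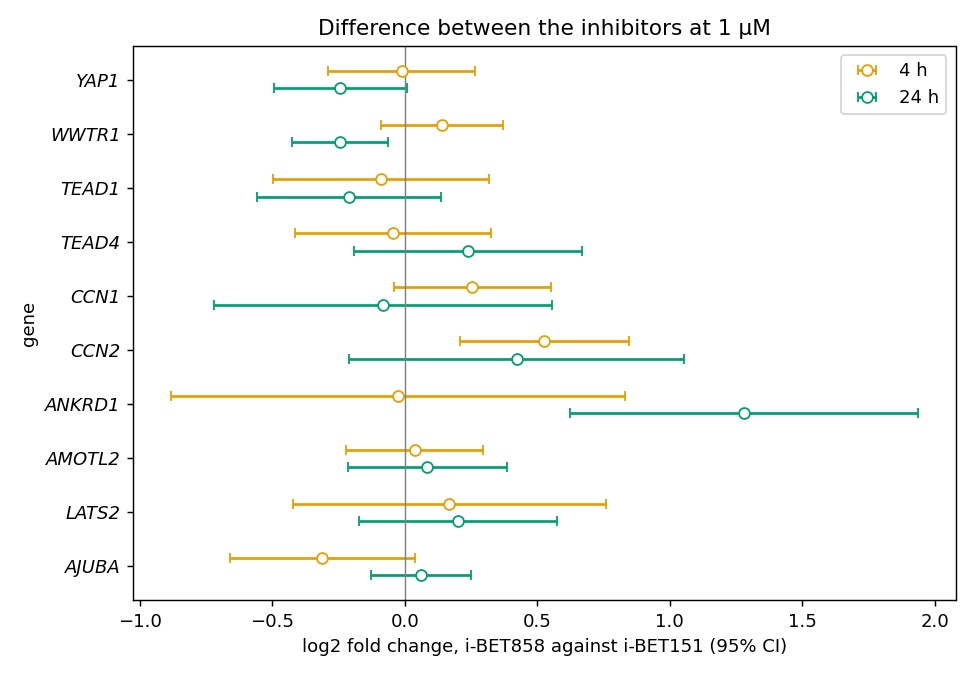
Log2 fold change of i-BET858 against i-BET151 with its 95% confidence interval for the 10 genes at 4 h (orange) and 24 h (green), where open points were not called. The intervals of CCN2 at 4 h and of WWTR1 and ANKRD1 at 24 h lie on 1 side of 0.

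The wider pathway was described through 34 other genes of the Hippo pathway and TEAD cofactors, all of which were tested. With i-BET858 at 4 h, 4 rose, 10 fell and 20 were not called, with a median log2 fold change of −0.23, beside 14.5% of all genes that rose, 16.3% that fell and a median of 0.02. Scaling by total counts shifted all genes at 4 h by a median of −0.14 in place of 0.02. It moved the share of higher calls among all genes from 47.1% to 31.9%. It gave 22 called genes of the list, as did the replicate block. The share of all genes called is not given for either setting, so the 22 are not compared with it. With i-BET151 at 4 h, 3 rose and 4 fell (median −0.11), beside 7.81% and 8.43% of all genes. Replicates 1 and 2 only gave 12 called genes of the list, where 25.9% of all genes were called. The replicate block gave 16, for which the share of all genes is not given. FRMD6, a FERM domain protein upstream of the Hippo kinases, rose by 2.02 with i-BET858 and 1.71 with i-BET151 (log2). TAOK3, a kinase related to those that activate MST1/2, rose by 0.87 and 1.00, and FAT4, an atypical cadherin, rose by 0.82 with i-BET858, with 0.30, not called, for i-BET151. STRN3, a scaffold of the phosphatase complex that opposes MST1/2, fell with i-BET858 and with i-BET151 (log2 fold changes −1.22 and −0.90), as did TAOK1 (−1.08 and −0.70). The call for FAT4 was lost when libraries were scaled by total counts (adjusted p = 0.0573) and without DMSO replicate 1 (0.0829) or 3 (0.0572) or i-BET858 replicate 2 (0.0948). That for TAOK1 with i-BET151 was lost without DMSO replicate 3 (0.0555) or i-BET151 replicate 1 (0.0603) or 2 (0.0649).

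Among the YAP-binding and TEAD-binding cofactors, AMOT, AMOTL1 and VGLL4 fell with i-BET858 at 4 h, by log2 fold changes of −0.35 (adjusted p = 0.0446), −0.81 (0.0448) and −0.53 (0.0407). These calls lay close to the threshold, and each was lost without any of 5 of the 6 libraries compared, with adjusted p up to 0.161 for AMOT (all but i-BET858 replicate 3), 0.162 for AMOTL1 (all but i-BET858 replicate 3) and 0.142 for VGLL4 (all but i-BET858 replicate 2). The call for AMOT was also lost with DESeq2 (0.0544), with its size factors in edgeR (0.0530), without the filter (0.0636), with the 2 groups alone (0.0826) and with all 18 libraries (0.0588). With i-BET151 AMOT fell by 0.59 (adjusted p = 0.00673), and AMOTL1 (−0.53) and VGLL4 (−0.46) were called with the replicate block (adjusted p = 0.00431 and 0.0223), with replicates 1 and 2 only (0.00990 and 0.0302) and without i-BET151 replicate 3 (−0.92, 0.0215, and −0.62, 0.0377), AMOTL1 also without the filter (0.0294). At 24 h none of the 3 was called with either inhibitor, with log2 fold changes of −0.35 to 0.20, except that AMOTL1 with i-BET858 was called with the replicate block (−0.35, adjusted p = 0.0165), with scaling by total counts (−0.43, 0.0236) and with replicates 1 and 2 only (−0.32, 0.0230).

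At 24 h the same 34 genes gave 13 higher and 5 lower with i-BET858 (median 0.21), where 20.5% and 21.3% of all genes were called. With i-BET151 there were 13 higher and 4 lower (median 0.22), where the shares of all genes were 17.2% and 16.6%. FAT4 rose by 1.73 and 1.30, FRMD6 by 1.66 and 1.52 and TAOK3 by 1.31 and 1.06. VGLL1, a TEAD cofactor, had 6.55, 5.30 and 10.1 CPM with DMSO and 0.317, 0.529 and 1.75 CPM with i-BET858, and fell with both inhibitors (log2 fold changes −3.14 and −3.95). TP73, which encodes a p53 relative that YAP can bind, also fell (−1.88 and −1.77). From 4 to 24 h the effect of i-BET858 rose for 15 and fell for 2 of the list (TEAD2 and TP73), with a median change of 0.50, beside 14.6% and 12.6% of all genes and a median of 0.00. These 17 calls became 11 without DMSO replicate 3 at 24 h or i-BET858 replicate 1 at 4 h. That of i-BET151 rose for 8 and fell for the same 2 genes, with a median change of 0.45, beside 6.99% and 6.82% of all genes and a median of 0.01, and these 10 calls became 17 with the replicate block and 5 without i-BET151 replicate 2 at 24 h.

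Of 17 other target genes, 2 rose and 2 fell with i-BET858 at 4 h (14.5% and 16.3% of all genes). With i-BET151, 1 rose and 3 fell (7.81% and 8.43%). These counts of 4 became 7 with the replicate block in both, for which no share of all genes is given. With replicates 1 and 2 only they became 7 (i-BET858) and 5 (i-BET151), where 41.9% and 25.9% of all genes were called. GADD45A, a stress response gene, rose with i-BET858 from 44.7, 47.1 and 37.8 to 136, 128 and 82.7 CPM (log2 fold change 1.43, and 0.92 with i-BET151). CCDC80, a secreted matrix protein, rose by 1.17 with i-BET858, and its value of 0.58 with i-BET151 was called with the replicate block (adjusted p = 2.58e-04) and without the filter (0.00444). FJX1 had 138.5, 157 and 140.1 CPM with DMSO and 40.4, 46.1 and 45.8 CPM with i-BET858 at 4 h. It fell in all 4 comparisons with DMSO, by log2 fold changes of −1.70 and −1.17 at 4 h and −2.88 and −1.87 at 24 h. At 24 h its fall was larger with i-BET858 than with i-BET151, by −1.01 (95% CI −1.37 to −0.65, adjusted p = 0.0485), and it was the gene of the list called in that comparison. This call was lost without any 1 of the 6 libraries of the inhibitors (adjusted p of 0.0991 to 0.228), with the 2 groups alone (0.113) and with DESeq2's size factors in edgeR (0.0560). TGFB2, a TGFβ ligand, fell at 4 h (−1.13 and −1.39), a call lost for i-BET858 without its replicate 1 (adjusted p = 0.0628) or DMSO replicate 3 (0.0589).

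At 24 h 4 of the 17 rose and 5 fell with i-BET858 (9 in all), where 20.5% and 21.3% of all genes did. With i-BET151, 3 rose and 5 fell (8 in all, 5 without i-BET151 replicate 2), where 17.2% and 16.6% of all genes did. These 8 calls also became 5 with at least 10 counts in every library. AXL, RBMS3 and FOXF2 had few counts at 24 h, with means of 1.28, 1.44 and 0.950 CPM with DMSO. Their means were 0.225, 0.299 and 0.210 CPM with i-BET858 and 0.293, 0.293 and 0.0967 CPM with i-BET151. Replicates 1 and 2 only gave 13 calls with each inhibitor, where 60.7% (i-BET858) and 54.2% (i-BET151) of all genes were called. NT5E, the surface nucleotidase CD73, rose from 9.87, 11.9 and 13.5 CPM with DMSO to 43.8, 37.4 and 66.5 CPM with i-BET858 (log2 fold change 2.01, and 1.52 with i-BET151). CRIM1, a transmembrane BMP regulator, rose by 1.07 and 0.97, and GADD45A by 0.99 and 0.57. The GADD45A call with i-BET151 was lost without DMSO replicate 3 (adjusted p = 0.0595) or i-BET151 replicate 1 (0.127) or 2 (0.0772), with scaling by total counts (0.0705) and with the 2 groups alone (0.0516). IGFBP3, an insulin-like growth factor binding protein, fell by log2 fold changes of −1.52 and −1.59, and NUAK2, an AMPK-related kinase, by −0.86 with i-BET858. With i-BET151 NUAK2 had −0.28 (adjusted p = 0.0783), called with the replicate block (0.0217), with scaling by total counts (0.0449), with replicates 1 and 2 only (0.00235) and without i-BET151 replicate 3 (−0.40, 0.0147). From 4 to 24 h the effect of i-BET858 rose for 2 of the 17 (CRIM1 and NT5E) and fell for 5 (median change −0.24, beside 14.6% and 12.6% of all genes), and that of i-BET151 rose for the same 2 and fell for 4 (median −0.33, beside 6.99% and 6.82%). With replicates 1 and 2 only, these 7 and 6 calls became 11 and 10, where 40.6% and 26.3% of all genes were called.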

How the data were processed

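The data were 18 RNA sequencing libraries of OVCAR-3 cells, 3 replicates of each of 6 groups. The authors deposited raw counts per gene, for which poly-A, paired-end reads had been aligned to GRCh38 and counted with STAR. The annotation and strand setting are not given in the sources used here. Symbols and exon lengths were taken from GENCODE 44, which covered 58472 of the 58825 genes (99.4%), and promoter windows from RefSeq (GRCh38.p14). The members and lists were chosen with earlier results of these data known.

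For each time, 1 fit of its 9 libraries used the quasi-likelihood method of edgeR 4.0.16 (R 4.3.3), after TMM scaling and its filter on low counts. Changes of an effect and the DMSO time course used 1 fit of all 18 libraries. The SE is the log2 fold change divided by the root of the F statistic, and calls needed a Benjamini-Hochberg adjusted p under 0.05 over all genes tested. CPM used TMM scaling over all libraries, RPKM the union of exons, and log2 CPM a prior count of 2. A count of 0 allows up to 3 counts, or 0.0648 to 0.110 CPM at the library totals without TMM scaling, which covers counting error only. From each list the text names the 3 called genes that i-BET858 raised most and the 3 it lowered most at each time (average log2 CPM 1 or more, 9 of 9 pairs in the same direction), and always TEAD2, TEAD3, LATS1, AMOT, AMOTL1 and VGLL4. FJX1 between the inhibitors was chosen after its values were seen. The tests were tried on simulated counts without any effect of the replicate number, unlike these data, and no result here rests on that trial.

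Deviations from the group means correlated across genes by 0.123 to 0.344 (4 h) and 0.143 to 0.330 (24 h) between libraries that share a replicate number, and by −0.311 to 0.216 (median −0.202) and −0.300 to 0.283 (median −0.229) for other pairs, so the ranges overlap. Every same-number pair exceeded 0.1, but centring on the mean of 3 replicates itself pushes the other pairs negative. The check also cannot tell pairing by number from replicate 3 alone standing apart, so whether the numbers pair the libraries is not settled. The main fits left the replicate number out, and the replicate block was an alternative. Alternatives were DESeq2 1.42.0, edgeR with DESeq2's size factors, scaling by total library size, no filter, a minimum of 10 counts per library, fits limited to the compared groups or widened to all 18 libraries, the replicate block, replicates 1 and 2 only, a 2-fold limit (applied to counts of calls only) and each library left out in turn. For the named genes of the lists, and for the counts of the lists with a changed effect, these were added after seeing the data.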

Additional observations from a re-analysis of the deposited data

Results flagged for a closer look

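The effect of an inhibitor differed between 4 and 24 h, by the drug-by-time interaction over all 18 libraries (edgeR, adjusted p under 0.05), in 4 cases among the 10 members. Of all genes, the effect of i-BET858 rose for 14.6% and fell for 12.6%, and that of i-BET151 for 6.99% and 6.82%. CCN1 changed by −1.39 for i-BET858 (adjusted p = 0.00475) and by −1.08 for i-BET151 (adjusted p = 0.0388). WWTR1 changed by −0.43 for i-BET858 (adjusted p = 0.0132), from above DMSO in all 9 pairs at 4 h to below it in 7 of the 9 at 24 h. AJUBA changed by 0.51 for i-BET858 (adjusted p = 0.0475). The calls of CCN1 for i-BET151 and of AJUBA lay close to the threshold, and leaving out any of most of the libraries compared lost them. That of AJUBA was also lost in most of the alternative fits that kept all libraries.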

How the results depend on the processing

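Of 1440 values of the 10 members under the alternatives, 1302 kept their direction and their side of the threshold, 45 gained a call, 37 lost one and 56 changed sign, and no value that was called changed sign. With the replicate block, 11 values of members gained a call and none lost one, each given beside its result, and no other call of a member changed. The limits are 3 replicates in each group, replicate 3 libraries with fewer genes detected, 1 cell line, DMSO libraries shared by the inhibitors at each time, and an unknown strand setting. Where a call or a sign changed, the cause was not tested.

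With a 2-fold limit as well, the members called against DMSO were 3 (i-BET858) and 2 (i-BET151) at 4 h and 0 and 1 at 24 h, and 1 for the change of the i-BET858 effect. For the Hippo pathway and TEAD cofactor genes this limit left 4 and 1 at 4 h, 7 and 6 at 24 h, and 5 and 2 for the changes of the effects, and for the other targets 2 with i-BET151 at 4 h. Of all genes it left 14.1% and 7.10% at 4 h, 18.8% and 13.7% at 24 h, and 15.1% and 6.70% for the changes, each for i-BET858 and i-BET151. Between the inhibitors, members called rose from 0 to 1 at each time with DESeq2 and without the filter on low counts, to 2 at each time with the replicate block, and to 1 at 4 h and 2 at 24 h with replicates 1 and 2 only. Between the DMSO groups each of these 4 settings called 1. With replicates 1 and 2 only, 2.29% of all genes were called between the inhibitors at 4 h and 7.29% at 24 h. The share between the DMSO groups was 0.322% with these replicates. The main fit called 0.413% higher and 0.558% lower at 4 h, 0.0933% and 0.117% at 24 h, and 0.00% and 0.0386% between the DMSO groups. With replicates 1 and 2 only, members with a changed effect were 5 for i-BET858 and 2 for i-BET151, and leaving out 1 library gave 0 to 1 for i-BET151. The Hippo pathway genes called at 4 h were 22 with total library size and 22 with the replicate block for i-BET858, and 16 with the block and 12 with replicates 1 and 2 only for i-BET151. Their changes of effect ranged from 11 to 19 (i-BET858) and from 5 to 11 (i-BET151) on leaving out 1 library, and reached 17 for i-BET151 with the block. The other targets called at 4 h were 7 without the filter, with the block and with replicates 1 and 2 only (i-BET858), and 7 with the block (i-BET151). At 24 h with i-BET151 they were 5 with at least 10 counts in every library, 13 with replicates 1 and 2 only and 5 to 10 on leaving out 1 library, and with replicates 1 and 2 only 11 and 10 of them changed their effect, in place of 7 (i-BET858) and 6 (i-BET151). With these replicates only, the calls over all genes rose as well, to 41.9% (i-BET858) and 25.9% (i-BET151) at 4 h. They rose to 60.7% and 54.2% at 24 h, and to 40.6% and 26.3% for the changes of effect. Shares of all genes called are not given for the replicate block, total library size, DESeq2, changed filters or left-out libraries.

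None of the values that changed sign had been called. With total library size, TEAD4 (−0.055) and AMOTL2 (−0.022) with i-BET858 at 4 h, AMOTL2 between the inhibitors at 4 h (−0.063) and TEAD1 with i-BET858 at 24 h (−0.082) did so, and TEAD1 at 24 h also with the replicate block (−0.0095). With at least 10 counts in every library, the changes of effect of TEAD4 (−0.021, i-BET858) and ANKRD1 (−0.014, i-BET151) did. With replicates 1 and 2 only, TEAD1 (0.0655) and TEAD4 (0.079) between the inhibitors at 4 h, TEAD1 with i-BET858 (−0.16), LATS2 (−0.045) and LATS1 (−0.0102) with i-BET151 and CCN1 between the inhibitors (0.0019) at 24 h, the changes of TEAD4 (−0.16) and ANKRD1 (−0.0068) and AJUBA between the DMSO groups (−0.062) did. LATS1 with i-BET858 at 24 h became 0.025 without the filter, 0.0084 with the 2 groups alone and 0.0385 with all 18 libraries. Leaving out 1 library at 4 h gave ranges of −0.032 to 0.29 (TEAD4, i-BET858) and −0.0087 to 0.22 (AMOTL2, i-BET151), and between the inhibitors of −0.25 to 0.12 (TEAD1), −0.12 to 0.068 (TEAD4), −0.018 to 0.099 (AMOTL2), −0.097 to 0.063 (YAP1), −0.56 to 0.25 (ANKRD1) and −0.17 to 0.41 (LATS2). At 24 h it gave, for i-BET858, −0.14 to 0.14 (TEAD1), −0.0601 to 0.0798 (LATS1), −0.022 to 0.32 (TEAD4), −0.39 to 0.081 (CCN1) and −0.29 to 0.089 (VGLL4). For i-BET151 it gave −0.069 to 0.12 (LATS2), −0.25 to 0.073 (TEAD4), −0.40 to 0.20 (CCN1) and −0.22 to 0.087 (VGLL4), and between the inhibitors −0.39 to 0.31 (CCN1) and −0.038 to 0.25 (AMOTL2). For changes of effect the ranges were −0.13 to 0.23 (TEAD4) and −0.50 to 0.041 (LATS2) for i-BET858, −0.28 to 0.29 (ANKRD1) and −0.025 to 0.23 (AJUBA) for i-BET151, and between the DMSO groups −0.093 to 0.086 (AJUBA) and −0.29 to 0.074 (TEAD4).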
